A study of Mus musculus with 22 samples.

Results

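The genes described here encode the light-detecting pathway of cone photoreceptors, the cells of daylight and color vision. They are the opsins Opn1sw and Opn1mw, the transducin subunits Gnat2, Gnb3 and Gngt2, the phosphodiesterase subunits Pde6c and Pde6h, the channel subunits Cnga3 and Cngb3, and cone arrestin, Arr3. All 10 were chosen by name, and each matched 1 of the 53801 gene identifiers of the bulk tables and 1 gene of the single-cell matrix. The question was whether the cone genes were spared where those of rods were lower in mice without AdipoR1, a membrane receptor for adiponectin.

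In both kinds of photoreceptor, light turns an opsin into an active receptor, which switches on the G protein transducin. Transducin releases the catalytic part of a phosphodiesterase from its inhibitory subunit, cyclic GMP is broken down, and cation channels held open by cyclic GMP close. Arrestin then binds the opsin and ends its activity. Rods and cones build this cascade from largely separate genes, and 9 rod counterparts of the cone genes were compared with them. Rods greatly outnumber cones in the mouse retina.

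All mice were C57BL/6J, either wild type (WT) or AdipoR1-/- (KO), a germline loss that is not limited to 1 cell type, and the labels name no treatment. Both sexes were used in the study, and the labels do not give the sex of a library. Bulk RNA-Seq covered the whole retina and detached cells of the retinal pigment epithelium (RPE), the layer behind the photoreceptors, at P30 (postnatal day 30), with 4 libraries per genotype and tissue. Single-cell RNA-Seq of dissociated retina gave 1 library per genotype at P19, P25 and P30, each made from 4 pooled retinae. The P30 single-cell libraries were sequenced in one batch and those of P19 and P25 in another, so age and batch cannot be told apart, whereas each batch held both genotypes.

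Bulk libraries held 20133143 to 38409496 counts. Adipor1 itself fell in the KO libraries, from 600.4 ± 8.09 to 138.6 ± 2.456 CPM in the retina and from 409.1 ± 48.66 to 145.5 ± 5.801 CPM in the RPE (mean ± SD, n = 4 each). These were 23.1% and 35.6% of WT, with edgeR adjusted p = 4.61e-13 and 0.000207. CPM here means counts per 1000000 reads after TMM scaling, and a gene passed the test at a Benjamini-Hochberg adjusted p below 0.05 in edgeR's quasi-likelihood test, unless another test is named. The study counts mice as the n of its bulk data, but the labels tie no library to an animal, so the p-values measure the spread between these libraries. In tissue RNA, fewer cells of a type and less RNA per cell cannot be told apart.

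In the KO retina at P30, rod genes were lower and cone genes on the whole were not, with 1 cone gene, Gnb3, far higher. Of the 10 cone genes, 2 (Opn1sw and Arr3) passed lower, 2 (Gnb3 and Cnga3) passed higher and 6 did not pass. This fit had no replicate block, with which Gnat2 also passed lower. Among all 19381 genes tested, 14.7% passed lower and 16.2% passed higher, so these shares of the cone genes are near the background. Of the 9 rod counterparts, 8 passed lower and 1, Sag, did not pass. With both tissues in a single fit, the log2 fold changes of these 8 stayed between -0.94 and -0.57 but none passed (adjusted p from 0.0921 to 0.701), and of the cone genes 1 passed, Gnb3 (2.04, adjusted p = 0.0313). The median log2 fold change was 0.019 over the cone genes, -0.757 over the rod counterparts and 0.0036 over all genes. Over 10 markers of ON bipolar cells, given further on, it was 0.207. CPM is relative to the other genes of a library, so a level CPM does not give the amount of message per retina or per cell. With a fold change of at least 1.5 also asked for, which 3.04% of all genes met lower and 7% met higher, 0 cone genes were lower, 1 (Gnb3) was higher, and 7 rod counterparts were lower. Scaling by library totals alone moved the median of all genes up by 0.1142 on the log2 scale, and Opn1sw then missed the threshold (log2 fold change -0.17, adjusted p = 0.0955), while Pde6c, Pde6h and Gngt2 passed higher, at 0.24, 0.20 and 0.19.

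**Figure D1:**
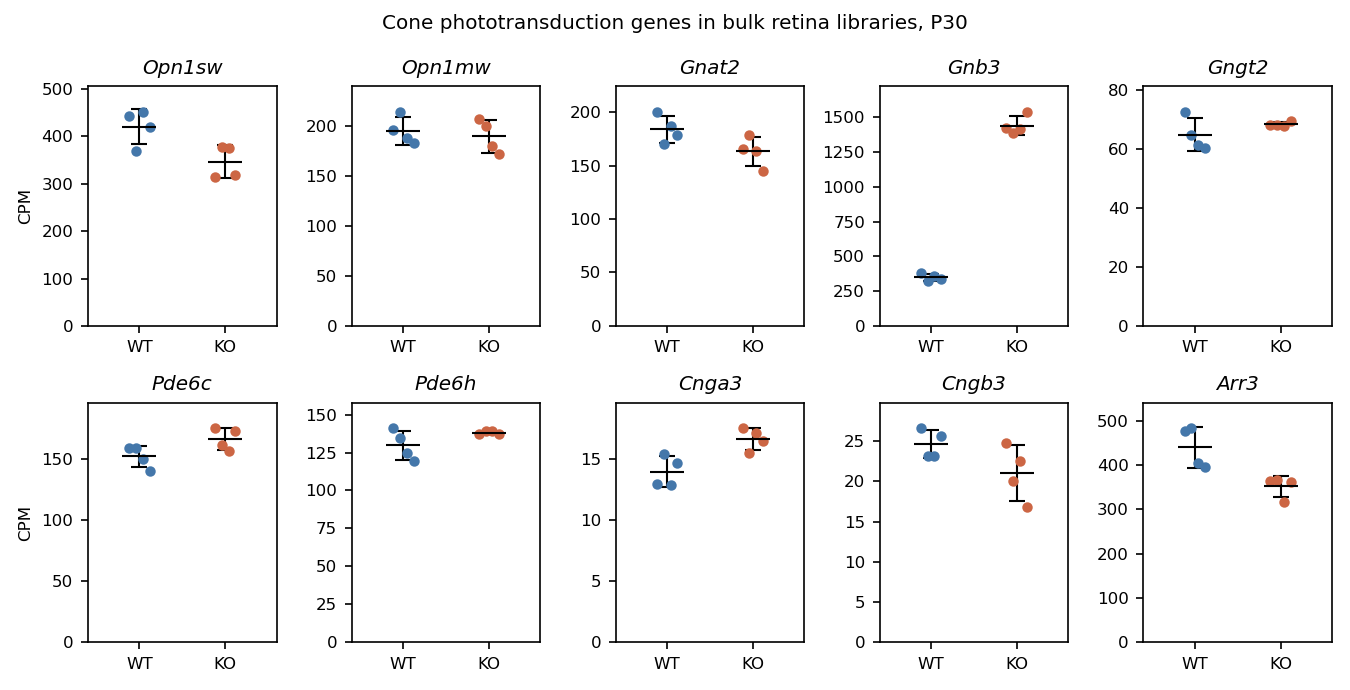
Counts per 1000000 reads (CPM, linear axis from 0) of the 10 cone genes in the bulk retina libraries at P30. Points are the 4 WT (blue) and 4 KO (orange) libraries, bars the mean and SD; Gnb3 lies between 1388 and 1541 CPM in the KO libraries, above the 319.6 to 380.6 CPM of WT.

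The opsins set the wavelength a cone responds to. Opn1sw, the short-wavelength opsin, was at 442.2, 367.9, 451.8 and 420.1 CPM in the WT retinas and at 313.9, 377, 374.8 and 318.8 CPM in the KO retinas. Its groups overlapped, because WT replicate 2 lay below KO replicates 2 and 3. The log2 fold change of Opn1sw was -0.28 (SE 0.0759, adjusted p = 0.0128), to 82.3% of WT. Opn1mw, the middle-wavelength opsin, read 195.1, 213.8, 187.3 and 182.4 CPM in WT against 206.6, 199.3, 179.7 and 171.4 CPM in KO. These libraries were interleaved, with a log2 fold change of -0.04 (95% confidence interval -0.18 to 0.10, adjusted p = 0.684).

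Transducin held the largest difference among the cone genes. Gnat2, the subunit that carries the signal to the phosphodiesterase, stood at 200.5, 170.4, 186.7 and 178.8 CPM in the WT retinas and at 165.9, 179, 163.4 and 145.4 CPM in the KO retinas. The groups overlapped, and the log2 fold change of -0.17 (SE 0.0619) missed the threshold at adjusted p = 0.0522. Its call turned on the setting, since Gnat2 passed lower with the replicate number as a block (adjusted p = 0.0464), with DESeq2 (0.0307), with RLE scaling (0.0485), with no filter on low counts (0.0359), and without WT replicate 2 (0.0265) or KO replicate 2 (0.0155). Gnat1 of rods fell by 0.90 on the log2 scale (adjusted p = 7.76e-07).

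Gnb3 encodes the beta subunit of cone transducin and is also used by ON bipolar cells. Its WT retinas held 380.6, 319.6, 355.7 and 337.9 CPM and its KO retinas 1422, 1388, 1414 and 1541 CPM. Every KO library was above every WT library, and the mean was 414% of WT (log2 fold change 2.05, SE 0.0654, adjusted p = 7.96e-11). Its rod counterpart Gnb1 fell by 0.84 (adjusted p = 1.01e-06), so the Gnb3 to Gnb1 ratio within a library went from a log2 mean of -3.76 ± 0.102 to -0.87 ± 0.15 (SD, n = 4 each). Gngt2, the gamma subunit, ranged from 60.18 to 72.49 CPM in WT and from 67.8 to 69.47 CPM in KO, with a log2 fold change of 0.08 (adjusted p = 0.319, and 0.039 without WT replicate 1), while Gngt1 of rods fell by 0.56 (adjusted p = 6.42e-06).

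The phosphodiesterase genes did not pass. Pde6c, the catalytic subunit, had 159.3, 158.8, 149.8 and 140.4 CPM in WT retinas against 175.2, 161.2, 156.8 and 172.9 CPM in KO retinas, overlapping groups with a log2 fold change of 0.13 (adjusted p = 0.0625). Without WT replicate 2 or KO replicate 3, Pde6c passed higher (adjusted p = 0.0462 and 0.038). Pde6h, the inhibitory subunit, read 119.3 to 141 CPM in WT and 136.9 to 138.9 CPM in KO, with the KO range inside that of WT (log2 fold change 0.09, adjusted p = 0.185). The rod genes Pde6a, Pde6b and Pde6g were lower by 0.61, 0.94 and 0.93 on the log2 scale, with no KO library reaching the WT range, and their adjusted p were 2.6e-06, 4.81e-08 and 5.79e-08.

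Of the channel subunits 1 passed, and it was higher. Cnga3, which forms the pore, read 12.99, 15.41, 12.89 and 14.73 CPM among WT libraries and 17.56, 15.49, 17.19 and 16.53 CPM among KO libraries. All KO libraries were above all WT libraries, the closest being 15.41 CPM in WT and 15.49 CPM in KO, and the log2 fold change was 0.25 (SE 0.0762, adjusted p = 0.0226). The call was lost when WT replicate 1 or 3 or KO replicate 1 or 3 was left out, with adjusted p from 0.056 to 0.0733. Cngb3, the modulatory subunit, read 26.6, 23.2, 23.14 and 25.58 CPM in WT and 24.75, 20.07, 22.54 and 16.78 CPM in KO, with overlap (log2 fold change -0.22, adjusted p = 0.114). Without KO replicate 1 Cngb3 passed lower, at -0.31 (adjusted p = 0.0316). Cnga1 and Cngb1 of rods fell by 0.76 and 0.76 (adjusted p = 7.3e-06 and 1.3e-07).

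Arr3, cone arrestin, stood at 477.4, 483, 405.1 and 396.2 CPM in WT retinas and fell to 363.1, 365.9, 317.3 and 362 CPM in KO retinas. All KO libraries lay below all WT libraries, at 79.9% of WT on average (log2 fold change -0.32, SE 0.0716, adjusted p = 0.0038). Its counterpart Sag, the arrestin of rods, was the exception on the rod side, with 4969 ± 190.7 CPM for WT and 5055 ± 246.4 CPM for KO (log2 fold change 0.02, adjusted p = 0.82). In WT single cells at P19, P25 and P30, Sag was at 7844, 6565 and 9787 CPM in cone-like cells and 10470, 8926 and 9658 CPM in rod-like cells. Gngt1 (3234, 3747 and 8103 CPM) and Pde6g (4133, 3903 and 6228 CPM) were also high in cone-like cells. These counterparts are thus not specific to rods, and the ratios and rod sum below include them.

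**Figure D2:**
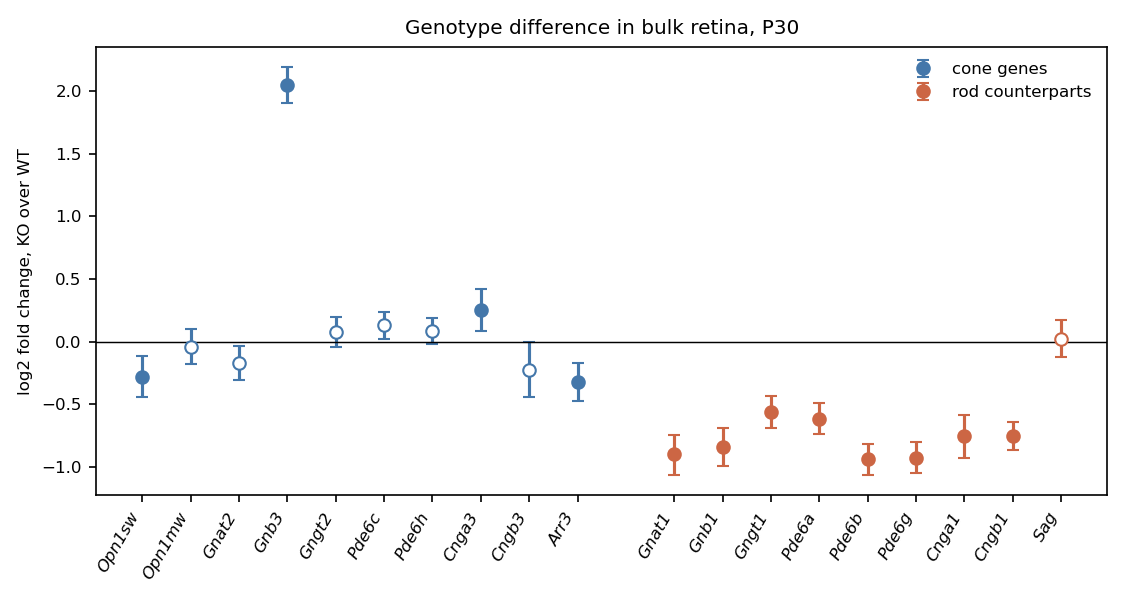
Log2 fold change, KO over WT, of the 10 cone genes (blue) and 9 rod counterparts (orange) in bulk retina at P30, with unadjusted 95% confidence intervals. Filled symbols passed at adjusted p below 0.05; Gnb3 stands at 2.05, the other cone genes lie between -0.32 and 0.25, and 8 rod genes lie between -0.94 and -0.56.

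Opn1sw and Arr3 are the 2 cone genes that passed lower, and the stretches just before their start sites are shown to compare what they share. RefSeq promoters (GRCm38.p6) were found for 6 of the 10 genes, and the 250 bases before the start were searched on both strands for TAATC, the core letters of sites bound by the photoreceptor factor CRX, which overlaps no other motif searched. It occurred in 19.8% of 32851 promoter stretches of that length and in 3 of the 6 cone genes, namely Opn1sw, Arr3 and Gnat2. Matches began 49 bases before the start in Opn1sw, 10, 102 and 116 bases before it in Arr3, and 18 bases before it in Gnat2. In the sequences, written 5′ to 3′ on the gene's strand, capitals mark the match. The first is chr6:29380514-29380763 on the minus strand and the second is chrX:100605247-100605496 on the plus strand.
Opn1sw: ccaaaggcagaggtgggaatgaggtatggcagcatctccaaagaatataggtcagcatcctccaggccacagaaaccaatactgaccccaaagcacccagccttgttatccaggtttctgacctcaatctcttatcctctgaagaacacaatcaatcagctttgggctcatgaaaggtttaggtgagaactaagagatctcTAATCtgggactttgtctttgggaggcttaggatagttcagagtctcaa
Arr3: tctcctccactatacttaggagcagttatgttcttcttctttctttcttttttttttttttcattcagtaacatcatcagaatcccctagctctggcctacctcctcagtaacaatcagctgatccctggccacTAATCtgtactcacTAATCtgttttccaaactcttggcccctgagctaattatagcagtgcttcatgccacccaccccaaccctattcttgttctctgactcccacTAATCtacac

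Ratios of the cone genes to their rod counterparts within a library do not depend on scaling. Pde6c was set against both Pde6a and Pde6b, and the opsins were in no pair, which gave 9 pairs. In 8 of these every KO retina had a higher ratio than every WT retina, and in Arr3 to Sag every KO retina had a lower one. In each of the 9 pairs the exact two-sided permutation test gave p = 0.0286, the smallest that 4 against 4 libraries can give, and p = 0.0286 after adjustment over the pairs. That test moves libraries freely, and with signs flipped only between WT and KO libraries of the same number each of the 9 pairs gave an exact p of 0.125, the smallest that design allows, so it cannot reach 0.05. The cone gene gained against its counterpart by 1.43-fold for Cngb3 to Cngb1, 2.03-fold for Pde6h to Pde6g and 7.41-fold for Gnb3 to Gnb1, whereas Arr3 to Sag went to 0.788 of WT. Summed over the genes, the cone messages came to 1973 ± 97.36 CPM in WT and 2903 ± 41.18 CPM in KO (147%). Without Gnb3 the sum was 1625 ± 78.87 CPM in WT and 1461 ± 49.08 CPM in KO (89.9%), and the sum of the 9 rod counterparts was 33200 ± 933.3 and 20820 ± 757.3 CPM (62.7%). Without Gnb3, then, the cone sum was lower in every KO library, the highest KO value being 1525 CPM and the lowest WT value 1538 CPM.

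Further lists of photoreceptor genes gave counts that differed. Of 12 further genes of the cascade, listed as used by both rods and cones, 12 passed lower (median log2 fold change -0.57), led by Rgs9bp, which anchors the transducin switch-off complex (-1.13, adjusted p = 3.29e-09), the guanylate cyclase Gucy2f (-1.09) and its activator Guca1b (-0.78). Gucy2f and Guca1b were, however, 2 of the genes at least 4-fold higher in WT rod-like cells than in every other class of the single-cell data, cone-like cells included. Of 8 other genes known from cones, 2 passed lower, Kcne2 (-0.41, adjusted p = 0.000876) and the thyroid hormone receptor Thrb (-0.15, adjusted p = 0.0477), 6 did not pass, and the median was 0.01. The next by p, Ccdc136, was at -0.14 (adjusted p = 0.0635). Of 13 transcription factors of photoreceptors, 8 passed lower and 1 higher, and the smallest p were those of Nrl (-1.08), Nr2e3 (-0.79) and Crx (-0.62). Of 10 genes of outer segment and cilium structure, 8 passed lower and 1 higher, with Fscn2 at -1.14, Rom1 at -0.89 and Prph2 at -0.94. By the same 4-fold rule Nrl, Nr2e3, Esrrb, Fscn2, Rom1 and Rp1 were highest in rod-like cells, and Thrb and Otop3 in cone-like cells. The lists thus differ in cell type as well as in role, and the part of each was not tested.

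Markers of other cells also differed. In the retina 5 of 10 ON bipolar markers passed higher and 0 lower (Trpm1 0.29, Rgs11 0.37, Grm6 0.27), none of them by 1.5-fold. All 10 microglia markers passed higher, with C1qa, C1qb and C1qc going from between 4.584 and 4.771 CPM in WT to between 27.93 and 29.42 CPM in KO. Among 7 RPE markers 1 passed higher (Pmel 0.75), and the defining Rpe65 had 5.859 ± 3.164 CPM in WT and 3.52 ± 1.857 CPM in KO retinas. What part these cells have in the bulk values of the cone genes was not tested, apart from the single-cell values given further on. Exons of Opn1sw, Pde6h and Gngt2 overlap those of Calu, Arhgdib and Abi3 on the opposite strand by 397, 136 and 234 bases, and no source used here states the strand setting of the counting, so reads of such a pair may be mixed. Gnb3, Arr3, Gnat2, Pde6c and Cnga3 overlap no annotated gene.

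The RPE libraries held their defining messages, with Rpe65 at 4070 ± 888.8 CPM for WT against 2128 ± 32.92 CPM for KO and Rgr at 14390 ± 2630 and 10200 ± 203.5 CPM (n = 4 each), and they also held rod and cone messages. In the RPE no cone gene passed the test without a replicate block. With the block Gnb3, Pde6c and Cngb3 passed, as given below. Among 18989 genes tested, 3.89% passed lower and 2.84% higher, and the count for the cone genes was 0 lower and 0 higher by edgeR. At an unadjusted p below 0.05 the count was 1, Gnb3, which was also the 1 that passed with DESeq2 (adjusted p = 0.0229). The level of retinal messages varied more between libraries of one genotype than between genotypes. Gnat1 was at 241.4, 3653, 3661 and 403.4 CPM in the WT libraries and at 177.3, 898.9, 1371 and 257.5 CPM in the KO libraries, so replicates 2 and 3 stood apart in both genotypes. Opn1sw moved with it, with 5.984, 121.8, 88.76 and 7.171 CPM for WT and 5.998, 52.48, 77.64 and 10.93 CPM for KO (log2 fold change -0.61, SE 1.13, adjusted p = 0.786). In 9 of 10 cone genes the log2 fold change was negative, from -1.24 for Cngb3 to -0.34 for Gngt2, and the median of -0.68 stood beside -1.19 for the rod counterparts and -0.02 for all genes. Without WT replicate 2 the values of Opn1sw and Gngt2 were 0.11 and 0.02.

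Gnb3 was the exception. It read 8.894, 96.34, 78.79 and 14.29 CPM in the WT RPE and 163.2, 307.7, 401.5 and 192.8 CPM in the KO RPE. All KO libraries were above all WT libraries, with a log2 fold change of 2.42 (SE 0.769), but the test did not pass (adjusted p = 0.117). With the replicate number as a block, Gnb3 passed higher (2.96, adjusted p = 0.0237), and Pde6c (-0.96, adjusted p = 0.0391) and Cngb3 (-1.25, adjusted p = 0.0285) passed lower. When replicates 2 and 3 were left out of both genotypes, a choice made after the data were seen, Gnb3 stood at 3.97 (adjusted p = 0.0301, 2 libraries per genotype) and no other cone gene passed, Cnga3 being too low to be tested. Relative to Gnb1 in the same library, Gnb3 was 13.8-fold higher in the KO RPE (exact permutation p = 0.0286). Gnb1 ranged only from 524 to 1484 CPM over the WT RPE libraries, where Gnat1 ranged from 241.4 to 3661 CPM. What part of Gnb1 came from rods was not tested, so this ratio may not compare with that of the retina. Pde6h was also higher relative to Pde6g in every KO library and Arr3 lower relative to Sag (exact permutation p = 0.0286 each, 0.0858 for all 3 after adjustment over the 9 pairs), while the other 6 pairs gave p from 0.3143 to 1. Flipping signs within the numbered libraries gave an exact p of 0.125, again the smallest possible, for these 3 pairs.

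A test of the difference between tissues passed for 3.11% of 21068 genes with a higher genotype effect in the RPE and for 5.73% with a lower one, and by edgeR for 0 of the 10 cone genes, 0 of which had an unadjusted p below 0.05. For Gnb3 the effect in the RPE was 0.38 higher on the log2 scale (SE 0.794, adjusted p = 0.819). Of the 10 microglia markers 9 passed higher in the RPE, and 2 of 7 RPE markers passed lower, Rpe65 (-0.94, adjusted p = 0.0159) and Lrat (-0.74, adjusted p = 0.0184).

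**Figure D3:**
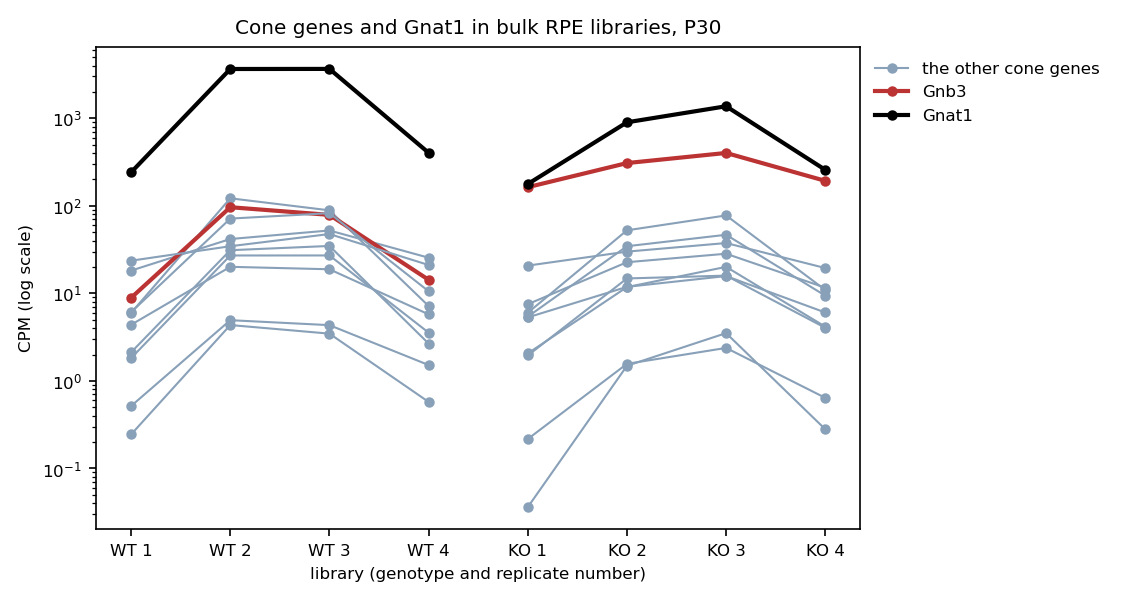
CPM (log axis) of the cone genes and Gnat1 (black) in each bulk RPE library at P30; lines join the libraries of one genotype by replicate number only to guide the eye. Gnat1 and most cone genes are high together in replicates 2 and 3 of both genotypes, and Gnb3 (red) is at 163.2 CPM or more in all KO libraries against at most 96.34 CPM in WT.

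The single-cell matrix held 26764 cells and 19324 genes. Of its cell barcodes, 26666 occurred in 1 library and 49 in 2. Cells were clustered with the 10 cone genes left out, which gave 49 clusters, 12 of them unnamed (4287 cells), and a cluster was called cone-like from its markers, the cone genes among them. The 2 cone-like clusters held 1177 and 385 cells, the first mostly of P19 and P25 and the second mostly of P30, in both genotypes. Rod-like cells lay in 5 clusters, 1 with most of the WT cells of P19 and P25, another with most KO cells of these ages, and again 1 each for WT and KO at P30, plus 1 of 57 cells with many UMIs (unique molecular identifiers, each counting 1 captured message).

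Cone-like cells made up 6.821% of the WT and 5.566% of the KO library at P19, 6.893% and 5.184% at P25, and 4.261% and 5.596% at P30. Exact 95% binomial intervals were 6.165 to 7.524 against 4.964 to 6.218, 6.159 to 7.685 against 4.619 to 5.795, and 3.512 to 5.117 against 4.854 to 6.413. The KO share was lower at P19 and P25 and higher at P30, with intervals that were apart at P25 and overlapped at P19 and P30. Rod-like cells made up 18.11% of the WT and 21.57% of the KO library at P19. Their shares were 17.98% and 34.76% at P25, and 52.31% and 54.66% at P30. A share of all cells falls as more cells of another class are captured, so these values do not show whether cones were lost. No single age could be tested, since it had 1 library of each genotype, and all intervals on single cells cover counting error only.

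In the WT libraries each cone gene had its highest level in cone-like cells, which follows in part from their use as markers. In UMIs per 1000000, which for this assay of message ends do not depend on gene length, Pde6h stood first at 16430, then Opn1sw at 10350, Opn1mw at 7571, Gngt2 at 6301, Gnb3 at 3911, Arr3 at 3423, Gnat2 at 3393, Pde6c at 1206, Cngb3 at 454.3 and Cnga3 at 93.89. Opn1sw and Arr3 varied most with age, from 9448 to 16900 and from 3121 to 6719. Gnb3, Arr3 and Gnat2 are neighbors in this order whose ranges over the ages overlap, as do those of Pde6h and Opn1sw and of Opn1mw and Gngt2. In the next class, 7 of the 10 were lower by 26.2-fold or more, and Gngt2 and Cngb3 were lower by 10.7-fold and 8.88-fold in cone bipolar-like cells. Gnb3 was the exception, at 2023 in rod bipolar-like cells and 846.7 in cone bipolar-like cells, and Gngt2 was also found in microglia-like cells, at 255.5. By the ratio of the level in cone-like cells to the highest level elsewhere, the genes outside the pathway most like these were Fbxw21 (listed at 0 in all other classes), Agr2 (165-fold), Cd8a (103-fold), Clca1 (71.4-fold) and En2 (66.7-fold), over the WT libraries.

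Within cone-like cells the summed cone genes were slightly lower in KO at each age. Summed over the 10 genes, the KO level was 94.3% of WT at P19, 93.1% at P25 and 92.1% at P30, with 15289 to 83372 UMIs behind each value. Cone-like cells also held fewer UMIs in KO, with medians of 4789 in WT and 3989 in KO at P19. The medians were 4940 and 3714 at P25, and 2189 and 1776 at P30. What part depth had in the lower sums was not tested. The rod counterparts, summed in rod-like cells, were at 95.6%, 109% and 89.6%, and without Sag at 94.8%, 97.3% and 74.5%. Sag itself was 1.43-fold higher in KO at P25 and 1.77-fold higher at P30, while at P30 Gnat1 was at 0.671, Pde6g at 0.668 and Gnb1 at 0.542 of WT. Arr3 was lower in KO at each age, at 3208 against 2542, 3121 against 2153 and 6719 against 5050 CPM. So was Gnat2, at 3231 against 2634, 3395 against 2743 and 4493 against 3590 CPM. Cngb3 (log2 ratios of -0.30, -0.34 and -0.57) and Opn1mw (-0.14, -0.17 and -0.27) were also lower at each age, with intervals that leave out 0. Opn1sw was lower at P19 (-0.28), about level at P25 (0.03) and slightly lower at P30 (-0.08).

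The remaining genes had no common direction. Gngt2 was higher at P19 (0.24) and near WT afterwards (0.03 and 0.04), and Gnb3 went from -0.17 at P19 to 0.01 at P25 and 0.13 at P30. Pde6c (0.02, -0.02 and -0.10) and Pde6h (0.04, -0.13 and -0.07) changed sign with age. Cnga3 rested on only 12 to 155 UMIs per library, and its intervals held 0 at each age.

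A limma-trend fit over the 3 ages, with age as a term, tested 10441 genes in cone-like cells, and 0.0287% passed lower and 0.00958% passed higher. These were Adipor1 (-1.76, adjusted p = 0.00459), Aldoa and Pgam1 lower and Scd2 higher, 4 genes in all, while 619 had an unadjusted p below 0.05. Of the cone genes 0 passed, and 4 (Arr3, Gnat2, Cngb3 and Opn1mw) had an unadjusted p below 0.05, each lower. The smallest p was that of Arr3, with a log2 fold change of -0.43 (SE 0.0723, adjusted p = 0.202), lower in 3 of 3 ages. With edgeR on the recovered UMI counts, which passed 115 genes, Arr3 passed (-0.40, adjusted p = 0.0112) and the other cone genes did not. Gnb3 was at -0.01 (SE 0.0783, adjusted p = 0.976), so the rise of the bulk retina was not seen in cone-like cells.

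**Figure D4:**
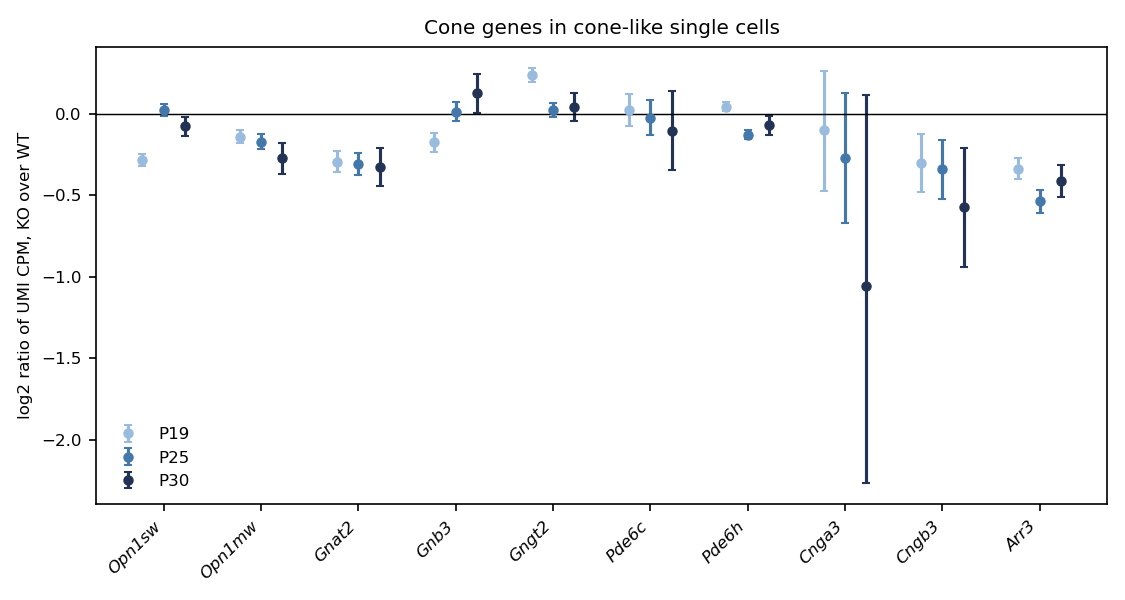
Log2 ratio of UMI CPM, KO over WT, of each cone gene in cone-like cells at P19, P25 and P30, with exact 95% intervals for counting error only (1 library per genotype and age). Arr3, Gnat2, Cngb3 and Opn1mw are below 0 at each age, and Gnb3 runs from -0.17 to 0.13.

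The mix of the opsins in cone-like cells had no common direction between genotypes. Opn1sw made up 55.2% of opsin UMIs in WT and 52.7% in KO at P19, 57.9% and 61.1% at P25, and 71.1% and 73.8% at P30. Among cells with at least 10 opsin UMIs, those with 90% or more from Opn1sw were 16.0% and 13.8% at P19, 17.5% and 18.7% at P25, and 25.0% and 33.2% at P30. The wider step was between ages, where age and batch cannot be told apart. Cells with at least 1 UMI of each opsin were 55.7% to 60.7% of cone-like cells across the 6 libraries.

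In rod-like cells, Gnb3 was far higher in KO at each age. Its level was 71.37 CPM in WT against 416.9 CPM in KO at P19, 95.66 and 1061 CPM at P25, and 108.2 and 1545 CPM at P30. These are 5.84-fold, 11.1-fold and 14.3-fold differences, from 94, 95 and 191 UMIs in WT and 592, 3072 and 3657 UMIs in KO. In the limma-trend fit over the ages, where 2.2% of 11634 genes passed lower and 4.25% higher, Gnb3 passed at 3.27 (SE 0.188, adjusted p = 1.81e-07). Opn1sw passed lower (-0.72, adjusted p = 0.0294) at a level 84.0-fold under that of cone-like cells in WT, Cnga3 had too few UMIs to be tested, and the other 7 cone genes did not pass. By age, Opn1sw in rod-like cells was at 0.519, 0.865 and 0.487 of WT. In Muller glia-like cells it was at 0.46, 0.451 and 1.28 of WT, and in rod bipolar-like cells at 0.357, 1.3 and 2.09. Whether the Opn1sw UMIs of rod-like cells came from those cells was not tested.

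A joint fit tested whether the genotype difference in rod-like cells departed from that in cone-like cells. It was larger in rod-like cells for 0.628% of 10032 genes and smaller for 0.0598%, and Gnb3 was the 1 cone gene that passed, by 3.27 on the log2 scale (SE 0.184, adjusted p = 6.96e-07). Gnb2, another G protein beta subunit named here after its values were seen, differed in the same way by 3.09 (SE 0.211, adjusted p = 4.57e-06). In rod-like cells Gnb2 went from 12.15 to 164.1, from 18.12 to 198.5 and from 32.3 to 329.2 CPM at the 3 ages, and in bulk retina from 79.17 ± 4.266 to 172.9 ± 6.894 CPM (n = 4 each, adjusted p = 9.01e-10). Gnb1, the usual beta subunit of rods, still made up most of the pair in KO rod-like cells, with Gnb3 giving 9.23%, 21.3% and 21.2% of the summed Gnb3 and Gnb1 UMIs, against 1.52%, 2.06% and 1.01% in WT. In cone-like cells Gnb3 gave 76.0% to 95.8%.

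Free RNA from broken cells reaches all droplets of a library, so the Gnb3 UMIs were set beside those of the other 9 cone genes. In cone-like cells there were 6.35 to 8.71 Gnb3 UMIs per 100 UMIs of the others. Rod-like cells had 28.0, 35.6 and 13.8 in WT and 174, 427 and 274 in KO, at P19, P25 and P30. Horizontal-like cells had 11.8, 0 and 14.3 in WT and 28.0, 367 and 183 in KO, from 3 to 25 UMIs of the other genes. In KO their range over the ages overlapped that of rod-like cells, so this ratio does not set the classes apart. What part free RNA had in rod-like cells was not tested. Thinned to 800 UMIs per cell, 6.13%, 5% and 5.46% of WT rod-like cells and 26.1%, 55.3% and 67.9% of KO rod-like cells had a Gnb3 UMI (8.22%, 8.66%, 10.0%, 34.2%, 68.5% and 78.9% unthinned). Thinning left out 55 to 213 cells per library, and median depths were 1019 to 1203 UMIs. Horizontal-like cells, which should lack the gene, were at 0 to 10.5% when thinned, from median depths of 8816 to 22720 UMIs. Unthinned they were at 5.13%, 0% and 6.25% in WT and at 11.9%, 21.1% and 31.6% in KO. Thinning takes far more UMIs from these deeper cells than from rod-like cells, so their thinned values cannot serve as a control for free RNA.

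In classes that held little Gnb3, it was higher in KO at the later ages. Muller glia-like cells had 21.34 CPM in WT against 25.79 CPM in KO at P19 (log2 ratio 0.27, interval -0.36 to 0.94), and went from 14.83 to 102.5 CPM at P25 and from 42.18 to 205.5 CPM at P30. Per 100 UMIs of the other cone genes, they held 20.4, 21.7 and 18.3 Gnb3 UMIs in WT and 38.9, 94.1 and 83.6 in KO, and the UMIs of those other genes went from 115 to 407 at P25 and from 60 to 122 at P30. The part of free RNA in these values was not tested, and horizontal-like cells were at 186.8 CPM in KO at P30, from 33 UMIs. Microglia-like cells were at 48.21, 40.23 and 780.2 CPM in KO at P19, P25 and P30, from 10, 11 and 42 UMIs. In WT they were at 0, 0 and 242.3 CPM, the last from 2 UMIs. Rod bipolar-like cells, where the gene is abundant, had 2015 and 2622 CPM at P19, 2060 and 2375 CPM at P25, and 1868 and 2249 CPM at P30. In terms of all Gnb3 UMIs of a library, rod-like cells gave 0.587% in WT and 4.35% in KO at P19, 0.706% and 20.6% at P25, and 7.56% and 47.8% at P30. The share from cone-like cells was 39.5% and 29.4%, 41.9% and 29.9%, and 36.1% and 20.3%. Such shares also depend on how many cells of a class were captured. Rod-like cells numbered 985 in WT and 1143 in KO at P19, 785 and 1958 at P25, and 1338 and 1895 at P30. Cone-like cells numbered 371 and 295, 301 and 292, and 109 and 194.

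**Figure D5:**
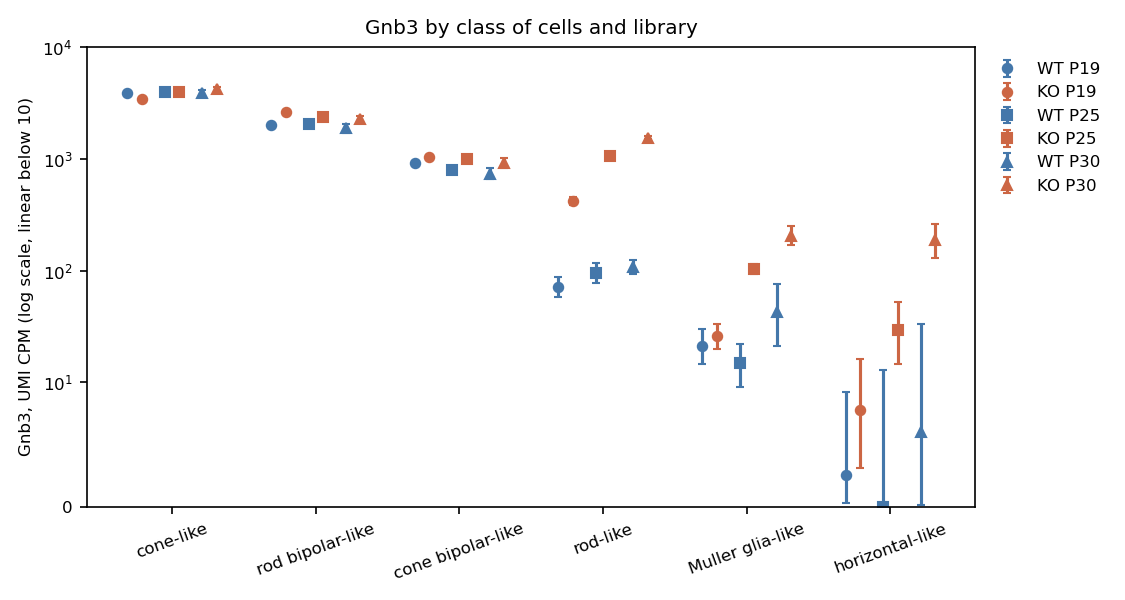
UMI CPM of Gnb3 (log axis, linear below 10) by class of cells, WT in blue and KO in orange, circles for P19, squares for P25 and triangles for P30, with exact 95% Poisson intervals for counting error only. Cone-like cells of both genotypes lie between 3438 and 4214 CPM, while rod-like cells go from 108.2 CPM or less in WT to 416.9 CPM or more in KO.

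A wider set of genes was chosen by level in single cells and read in the bulk libraries. From the WT cells alone, 52 further genes were at least 4-fold higher in cone-like cells than in every other class, and 89 genes met the same rule for rod-like cells. Of the 49 cone-enriched genes tested in the retina, 5 passed lower, 14 passed higher and 30 did not pass, with a median log2 fold change of 0.10. Of 87 rod-enriched genes tested, 73 passed lower, 5 higher and 9 did not pass, with a median of -0.75. Over all genes tested in the retina, 14.7% passed lower and 16.2% higher. In the RPE 1 of 32 cone-enriched genes passed lower and 1 higher, and 3 of 72 rod-enriched genes passed lower. These RPE counts are near the shares over all genes tested there, 3.89% lower and 2.84% higher.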

How the data were processed

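Data were 16 bulk RNA-Seq libraries of retina and RPE and 6 single-cell libraries of retina, placed in groups by their labels. The cone genes, their rod counterparts and all gene lists were chosen with earlier results of these data known. The named genes were the 10 cone genes and 9 counterparts (a further one is not reported here), the 3 genes of smallest p in each other list, and the 5 genes most like the cone genes by cell class.

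Raw bulk counts per gene were deposited without normalization, 20133143 to 38409496 per library. For the single cells the authors deposited natural log values of cells scaled to 10000. The submitters' notes name Cell Ranger 2.1, Seurat 3.2.2, edgeR 3.20.9, HOMER and the build mm10. The strand setting and the filters on cells were not stated. Symbols came from GENCODE M21 for 53620 of 53801 identifiers.

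Whole UMI counts were recovered by inverting the log scale in 2 steps, after which 99.99998% of values were whole within 0.01. Bulk counts were tested with edgeR 4.0.16 (TMM, default filter, quasi-likelihood test), with DESeq2 1.42.0 and limma 3.58.1 as alternatives, in R 4.3.3. Cells were clustered (2000 variable genes without the cone genes, 30 components, 15 neighbors, Leiden resolution 1), and clusters were named from fixed markers. No doublet caller was run, and an alternative dropped the top 5% of cells by UMIs. UMIs summed per library and class were tested with limma-trend (prior count 2, genes with at least 20 UMIs over the 6 sums). Intervals are exact (Clopper-Pearson or Poisson, 95%). Scripts were tested on simulated data. Further alternatives were other scalings, no filter, a replicate block, a joint fit of both tissues, a fold change of at least 1.5, leaving out each library or age, resolution 2, at least 50 UMIs, and the cone genes kept for clustering.

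Whether replicate numbers pair the libraries was checked by correlating the deviations of same-numbered WT and KO libraries from their group means. The correlations were 0.157 to 0.218 in the retina and 0.287 to 0.655 in the RPE, each over 0.1. Libraries of different numbers were not compared in this way, so this does not settle whether the numbers pair the libraries. The main fits do not pair them, and results with the replicate block and with sign flips are given beside them.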

Additional observations from a re-analysis of the deposited data

Results flagged for a closer look

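In the bulk retina, 4 values stood apart from the other KO libraries of their gene by Dixon's criterion, which chance meets in about 1 in 20 groups. The criterion was applied to each cone gene and counterpart in both tissues and both genotypes, so several such values can arise by chance. Arr3 was at 317.3 CPM in KO replicate 3, against 362 to 365.9 CPM in the others. Gngt2 was at 69.47 CPM in KO replicate 4, against 67.8 to 67.95 CPM. Among the rod counterparts, Gngt1 was at 811.4 CPM in KO replicate 1 and Cnga1 at 408.3 CPM in KO replicate 4. Leaving out KO replicate 3 kept the call of Arr3, and leaving out the library named changed no call of Gngt2, Gngt1 or Cnga1.

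In single cells, the log2 fold change of Gnb3 was larger in rod-like than in cone-like cells by 3.275 (limma-trend with both classes in a single fit, SE 0.184, adjusted p = 6.96e-07), with Gnb3 higher in KO rod-like cells at 3 of 3 ages.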

How the results depend on the processing

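In the bulk retina 5990 genes passed, against 1946 with a fold change of at least 1.5 and 2731 with both tissues in a single fit. The 2 cone genes lower and 2 higher became 0 and 1 with that fold change, 1 and 5 with scaling by library totals (where 79.8% of passing genes were higher, against 52.5%), and 0 and 1 in the single fit, where Gnb3 was the 1 cone gene that passed (adjusted p = 0.0313) and each of the 8 lower rod counterparts missed the threshold (adjusted p from 0.0921 to 0.701) with log2 fold changes between -0.94 and -0.57. Leaving out a library gave 2 to 3 lower and 1 to 3 higher, the 1 without WT replicate 3 or KO replicate 1 and the 3 higher without WT replicate 2. The gap between the medians of cone genes and rod counterparts, 0.776, ranged from 0.776 to 0.785 with other scalings, filters and fits and from 0.765 to 0.817 with 1 library left out. In the RPE 1278 genes passed, against 2701 with DESeq2, 2863 in the single fit, 208 without replicates 2 and 3 (chosen after seeing the data), and 645 to 2130 with 1 library left out, the highest without WT replicate 1 and the lowest without KO replicate 4, with 720, 696 and 834 without KO replicates 1, 2 and 3. The replicate block, which follows the replicate numbers, gave 2 cone genes lower in the RPE in place of 0. With it Gnb1 also passed in the RPE (-0.80, adjusted p = 0.0459). Apart from these and the calls given beside the results, the block changed no call of a cone gene or counterpart. The paired exact test of the cone to rod ratios, also added after seeing the data, cannot pass with 4 pairs.

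With UMIs of all cells in place of cone-like cells, the summed cone genes were at -0.368, -0.311 and 0.419 (log2, P19, P25 and P30), the last reversed from -0.119, where the share of cone-like cells was also higher in KO. Without Gnb3, the all-cell value at P30 was 0.214. The summed rod counterparts in rod-like cells reversed at P25 without Sag, from 0.13 to -0.039, and stood at -0.077 and -0.424 at P19 and P30 (an alternative added after seeing the data). Leaving out the 5% of cells with the most UMIs put Gnb3 in rod-like cells at 4.092 at P30, from 3.836. In cone-like cells 4 genes passed, against 115 with edgeR and 4 to 114 with 1 age left out (50 without P19, 114 without P30), and in rod-like cells 750, against 402 without P25 and 1427 without P30. Arr3 in cone-like cells passed without P19 or without P30. Where not stated otherwise the cause was not tested. No cone gene or counterpart that passed in the bulk libraries or in cone-like cells changed sign under the alternatives run. Depth limited Cnga3 in single cells, with 12 to 155 UMIs per library in cone-like cells.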
